A study of Mus musculus with 117 samples.

Results

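A/J is an inbred laboratory mouse strain, and the stretches of hepatocyte chromatin described here are those where A/J stood alone. The genome was read in 200-bp bins on autosomes 1 to 19, and a bin was called private to A/J where the other 8 strains carried one and the same chromatin state and A/J carried another. Of 12313718 autosomal bins, the other 8 strains agreed in 7648914, and A/J differed from them in 165924. These bins cover 33.2 Mb, 1.35% of all bins and 2.17% of the bins on which the others agreed. No state change, length or gene was used to choose them.

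The study applied chromatin immunoprecipitation sequencing to hepatocytes, which make up most of the liver's mass, from females 12 weeks old. Its 9 inbred strains are A/J, the other classical laboratory strains C57BL/6J, 129S1/SvImJ, DBA/2J, NZO/HlLtJ and NOD/ShiLtJ, and the wild-derived WSB/EiJ, CAST/EiJ and PWK/PhJ, and the labels name no treatment, transgene or engineered allele. Each strain has 13 of the 117 libraries: H3K4me1, H3K4me3, H3K27ac and H3K27me3 in each of 3 mice, and 1 input without antibody. All libraries of a strain are labelled with the same single segmentation, so spread between mice of a strain is not seen and A/J is a single value in every comparison. An exact permutation test of 1 strain against 8 cannot give a two-sided p below 0.222, and none was made. The read depth behind each segmentation is unknown, and in bulk cells a mark on few cells cannot be told apart from a weak mark on all.

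A chromatin state is a recurring combination of histone marks, given a number by a segmentation model. As background, H3K4me3 marks active gene starts, H3K4me1 marks enhancers, H3K27ac marks enhancers and starts in use, and H3K27me3 is laid down by Polycomb complexes over silenced genes. In liver, enhancers and starts with active marks surround the genes for plasma proteins, lipid handling and drug metabolism. The mark content of the 14 states is not given in the sources used here, so the states are called by number and described by where they lie. State 14 covered 74.9% of the A/J autosomes and state 13 covered 12.8%.

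Where all 9 strains agreed, position relative to genes separated the states. Within 1 kb of a protein-coding gene start lay 74.4% of state 3 bins, 44.3% of state 12 bins and 19.9% of state 1 bins. States 2 and 6 lay away from starts, with 0.516% and 0.405% of their bins there, but mostly inside genes, with 70.2% and 79.0% in gene bodies. In gene bodies lay 37.9% of state 13 and 36.2% of state 14 bins, near the 37.8% of all agreed bins. State 14 makes up most of that total, with 6823650 of 7482990 bins. Near starts states 13 and 14 differed, with 2.98% and 0.462% of their bins against 1.29% of all. The cell type label was checked at starts of marker genes. All 6 hepatocyte markers with a listed start (Alb, Apoa1, Apob, Fgb, Hnf4a and Serpinc1) had states 1 to 3 within 1 kb of it in A/J, as they did in each other strain. In A/J 0 of 5 Kupffer cell, 0 of 3 endothelial, 1 of 3 stellate, 1 of 4 bile duct and 0 of 4 lymphocyte markers did, against 0 to 1, 0 to 2, 1, 0 to 2 and 0 to 1 in the other strains.

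The upstream sequences of 4 genes are shown because a listed start of each lay in a stretch private to A/J. Each had another kind of change, and Iah1 was chosen after its values were seen. Mapk10 has 2 listed starts, and the one used, at chr5:103058392, lies inside the gene (chr5:102908547-103212604). The start bin of Gm550 went from state 14 to state 3, that of Iah1 from 1 to 9, that of Ifna13 from 14 to 4, and that of Mapk10 from 14 to 13. The sequences are the 250 reference bases before the start, from RefSeq on GRCm38.p6, and not A/J sequence. They lie at chr19:6094169-6094418 (+) for Gm550, chr12:21316142-21316391 (+) for Iah1, chr4:88644460-88644709 (-) for Ifna13 and chr5:103058393-103058642 (-) for Mapk10. Capitals mark TATAAA (the TATA box core), CCAAT and GGGCGG (the GC box) on either strand, and overlapping matches run together.
Gm550: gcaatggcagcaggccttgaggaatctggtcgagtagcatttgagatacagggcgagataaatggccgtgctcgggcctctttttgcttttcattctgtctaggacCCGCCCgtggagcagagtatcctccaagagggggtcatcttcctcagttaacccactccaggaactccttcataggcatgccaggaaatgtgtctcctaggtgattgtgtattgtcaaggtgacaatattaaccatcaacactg
Iah1: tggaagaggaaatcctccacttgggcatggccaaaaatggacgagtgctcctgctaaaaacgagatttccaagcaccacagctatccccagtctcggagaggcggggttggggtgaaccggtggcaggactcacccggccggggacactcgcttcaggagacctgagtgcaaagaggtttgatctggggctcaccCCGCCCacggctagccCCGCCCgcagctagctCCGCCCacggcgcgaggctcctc
Ifna13: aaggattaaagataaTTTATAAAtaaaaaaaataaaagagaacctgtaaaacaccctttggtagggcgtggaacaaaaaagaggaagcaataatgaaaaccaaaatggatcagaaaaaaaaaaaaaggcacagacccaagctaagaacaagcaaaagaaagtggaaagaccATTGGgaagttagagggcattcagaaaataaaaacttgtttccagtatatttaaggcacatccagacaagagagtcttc
Mapk10: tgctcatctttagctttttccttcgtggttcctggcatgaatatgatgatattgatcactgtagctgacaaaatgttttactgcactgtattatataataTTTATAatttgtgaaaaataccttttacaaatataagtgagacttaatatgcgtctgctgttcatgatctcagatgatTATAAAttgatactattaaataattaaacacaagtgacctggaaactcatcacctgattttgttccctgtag

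The 4 sequences differed in base composition. The Iah1 sequence held 3 GC boxes and 16 CpG dinucleotides, and the Gm550 sequence 1 GC box and 6 CpG. Ifna13 had 2 TATA matches, 1 CCAAT and 1 CpG, and Mapk10 had 2 TATA matches and 2 CpG. Over the 20085 upstream sequences of this length in the table, 11.7% held TATAAA, 35.3% held CCAAT and 43.4% held GGGCGG, and the median CpG count was 10. A match is a description of letters and not of a bound site.

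A/J was in the middle of the strains for how much of its genome was private. Its 1.35% was the 5th highest of 9, between 0.647% in C57BL/6J and 4.56% in PWK/PhJ, with a median of 1.18% over the other 8. In bins, the next strains above were NOD/ShiLtJ with 185701 and WSB/EiJ with 248051, and the next below was 129S1/SvImJ with 104835. What set A/J at the edge of the range was the direction of its changes. In 84.9% of A/J private bins the other 8 were in state 14 (other strains 61.3% to 85.8%), and A/J itself was in state 14 in only 6.72%, the lowest of the 9 (others 7.18% to 26.1%). Neither side was in state 14 in the remaining 8.35%.

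**Figure D1:**
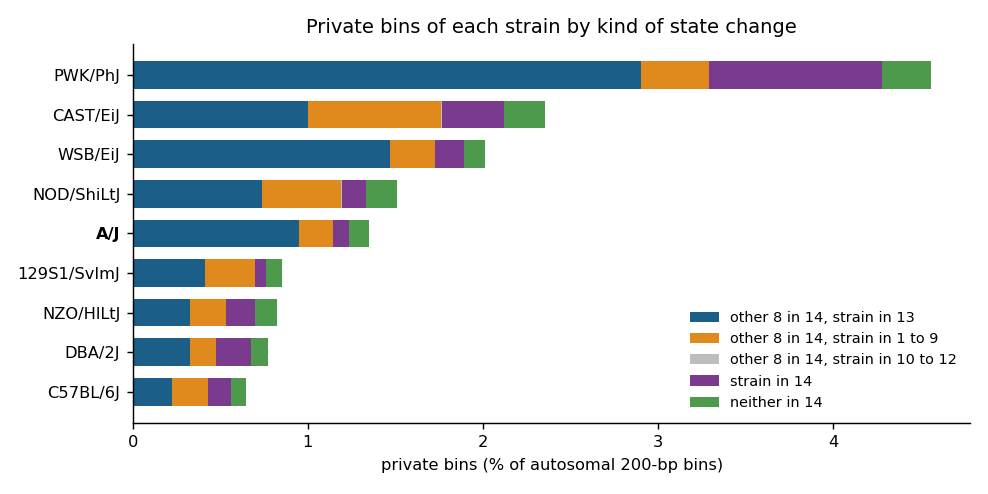
Private bins of each strain (bars, as % of autosomal 200-bp bins), split by the states on either side of the change; each strain has 1 segmentation, so there are no error bars. A/J is the 5th longest bar, at 1.35%, and the part with A/J itself in state 14 is 6.72% of its bar, the smallest such part of the 9.

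The leading change was from state 14 in the others to state 13 in A/J. It made up 117138 bins, 70.6% of the A/J private bins, against 34.5% to 73.0% in the other strains, with WSB/EiJ alone higher. The opposite change, from 13 to 14, made up 7146 bins or 4.31%, the lowest of the 9 (others 5.24% to 21.1%). A/J thus had 16.4 bins of 14-to-13 for each of 13-to-14, the highest ratio of the 9, the others having 2.01 to 13.9. The share of the whole genome in state 13 moved with this: it was 12.8% in A/J, behind only WSB/EiJ with 13.1%, and at least 9.40% in the others. Its part in the result was not tested.

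Further changes out of state 14 and into it were fewer. From 14 to state 4 went 12061 bins, 7.27% of the private bins (other strains 3.96% to 25.9%), and from 14 to state 6 went 9982 bins, 6.02% (3.41% to 9.69%). The reverse of the first, from 4 to 14, held 3045 bins, 1.84% (0.333% to 5.71%). Between state 14 and states 1, 2 and 3 there were few changes: 241 bins went from 14 to state 1, 2 or 3, and 113 went from one of those to 14. From 14 to state 9 went 1353 bins, 0.815%, a change that held 19.5% of the private bins of NOD/ShiLtJ.

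Within the states that lie in and around genes, A/J stood at the top of the range for a pair of changes. From 1 to 8 went 3554 bins, 2.14% of the A/J private bins, where the other strains had 0.127% to 1.38%. From 2 to 6 went 2523 bins, 1.52%, where the others had 0.0773% to 1.43%. Read from the shared state, A/J departed from state 1 in 3.42% of the bins where the other 8 shared it, and in 67.1% of those it had state 8. It departed from state 2 in 9.16%, with state 6 in 55.6% of those. State 4 was left in 10.2%, with state 14 in 69.7% of those. These departures from states 1, 2 and 4 lay within the other strains' 0.673% to 7.70%, 3.51% to 17.3% and 3.60% to 23.1%.

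States 6 and 8 themselves were seldom left. Where the other 8 shared state 6, A/J differed in 3.24% of bins, and where they shared state 8 in 2.33%, both the lowest of the 9 strains (others 5.46% to 17.6% and 2.89% to 23.9%). The total amount of these states moved the same way, since state 6 covered 3.04% of the A/J autosomes, the highest of the 9 (others 2.24% to 2.86%), and state 8 covered 0.926%, the second highest. The part of these totals in the results was not tested.

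**Figure D2:**
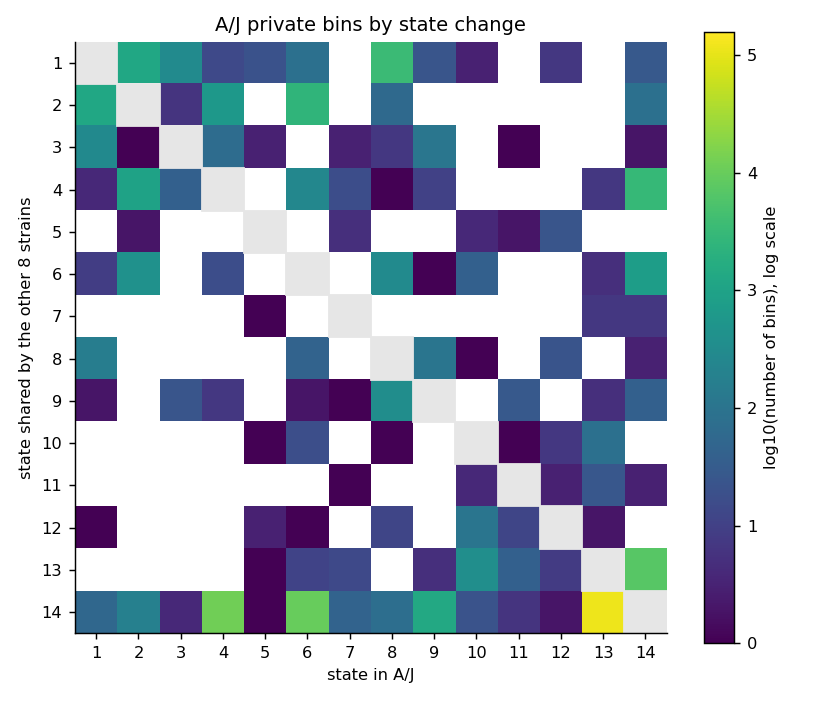
Number of A/J private bins for each pair of states, with the state of the other 8 strains down the side, the state of A/J along the bottom and colour for log10 of the number of bins; white squares hold none. The brightest square is 14 to 13 with 117138 bins, followed by 14 to 4 with 12061 and 14 to 6 with 9982.

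The kinds of change differed in where they lay. Only 0.417% of the 14-to-13 bins were within 1 kb of a protein-coding start and 31.2% were in a gene body. Bodies were counted here without the 1 kb to each side. Of the 1-to-8 bins 17.7% were near a start and 76.8% in a body, and of the 2-to-6 bins 0.595% and 77.0%. For 14 to 4 the shares were 0.846% and 48.8%, for 14 to 6 they were 0.501% and 63.8%, and for 4 to 14 they were 0.591% and 64.2%. The states themselves have like shares: of the bins on which all 9 strains agreed, 36.2% of state 14 and 68.9%, 70.2%, 79.0% and 86.5% of states 1, 2, 6 and 8 were in a body.

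Private bins fell into 60322 runs of neighbouring bins with the same change. The median run was 400 bp and the mean 550 bp, and 42.6% of runs were a single bin. Runs of at least 1 kb numbered 10285, or 17.1%, and runs of at least 2 kb numbered 1813. Of all runs, 72.9% touched an A/J segment of the same state; whether that segment was shared with another strain was not measured. Whole A/J segments that were private throughout numbered 16045 and held 26.7% of the private bins (other strains 21.6% to 37.5%).

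Length went with the kind of change. Of the 33377 runs from 14 to 13, 25.5% reached 1 kb, and the longest was 11400 bp. Runs from 14 to 4 were much alike, with 22.3% reaching 1 kb and a longest of 6200 bp. Runs from 14 to 6, from 1 to 8 and from 2 to 6 had a median of 200 bp, 1 bin, and 0.917%, 0.246% and 1.44% of them reached 1 kb. The 14-to-13 bins also lay near state 13 of other strains: 68.1% were within 1 kb of a bin that at least 1 other strain had in state 13, against 19.4% of all agreed state 14 bins, and the median distances were 600 and 5400 bp.

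**Figure D3:**
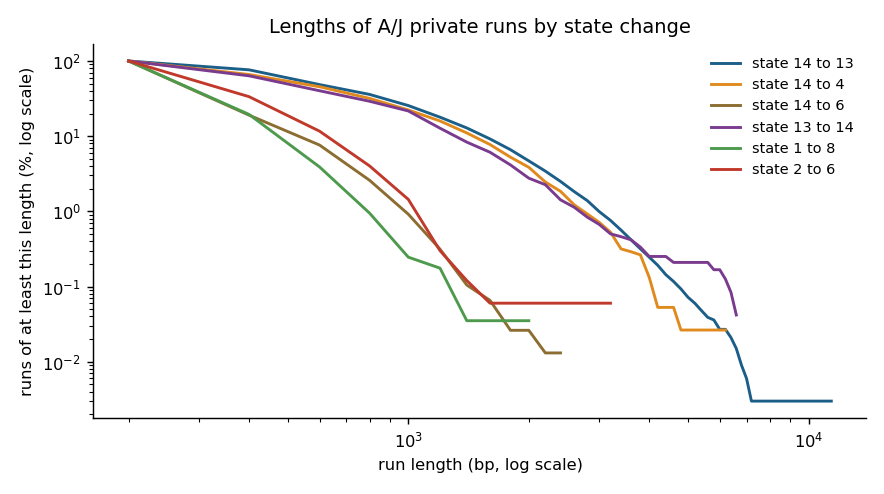
Share of A/J private runs that reach at least a given length in bp, for 6 kinds of change, with both axes on a log scale. The curves for 14 to 13, 14 to 4 and 13 to 14 run out to 11400, 6200 and 6600 bp, and those for 14 to 6, 1 to 8 and 2 to 6 end at 2400, 2000 and 3200 bp.

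The 10 longest runs were led by one of 11400 bp at chr4:100514401-100525800 inside Ube2u, a ubiquitin-conjugating enzyme gene, and the antisense-named lncRNA gene Ube2uos, from 14 to 13. It lay in an A/J state 13 segment of 15400 bp. Runs of 14 to 13 also covered 6600 bp of Boll, a germ cell RNA-binding protein gene, at chr1:55323001-55329600, and 6400 bp of Hivep3, a zinc finger factor gene, at chr4:119779401-119785800. The other 7 lay outside genes. Among them were 3 on chromosome 18, of 7000, 6800 and 6600 bp, and 1 of 6400 bp at chr12:45241001-45247400, all from 14 to 13. A pair went from 13 to 14, 6600 bp at chr16:3573201-3579800 nearest to Olfr161, and 6400 bp at chr12:109126001-109132400 nearest to Begain. The last, 6200 bp from 14 to 4 at chr1:21154401-21160600, lay 5836 bp from Tmem14a.

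Chromosome 18 held more A/J private bins for its size than any other autosome. The private share was 2.64% there and 1.30% on the other autosomes, a ratio of 2.04. Among the 171 ratios of 9 strains and 19 autosomes this was the highest, the next being 1.72 for WSB/EiJ on chromosome 7. The other 8 strains had 0.645 to 1.20 on chromosome 18. At the low end, A/J had 0.916% on chromosome 7, a ratio of 0.666.

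The excess on chromosome 18 was of one kind. Of its 11984 private bins 84.6% went from 14 to 13, against 69.5% on the other autosomes, and the chromosome held 8.65% of all A/J 14-to-13 bins on 3.68% of the bins. Private bins of every other kind covered 0.408% of chromosome 18, within the 0.317% to 0.542% of the other autosomes. State 13 covered 17.4% of chromosome 18 in A/J and 12.7% elsewhere, 4.77 points more, where the other strains had between -1.82 and 2.75 points. In 14 of its 18 windows of 5 Mb, A/J had the highest state 13 share of the 9. State 13 segments on it numbered 51.8 per Mb with a mean of 3365 bp, against 39.3 per Mb and 3222 bp on the other A/J autosomes. States 1 to 9 together covered 11.2% of chromosome 18 and 12.1% elsewhere. Without chromosome 18 the A/J private share was 1.30%.

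**Figure D4:**
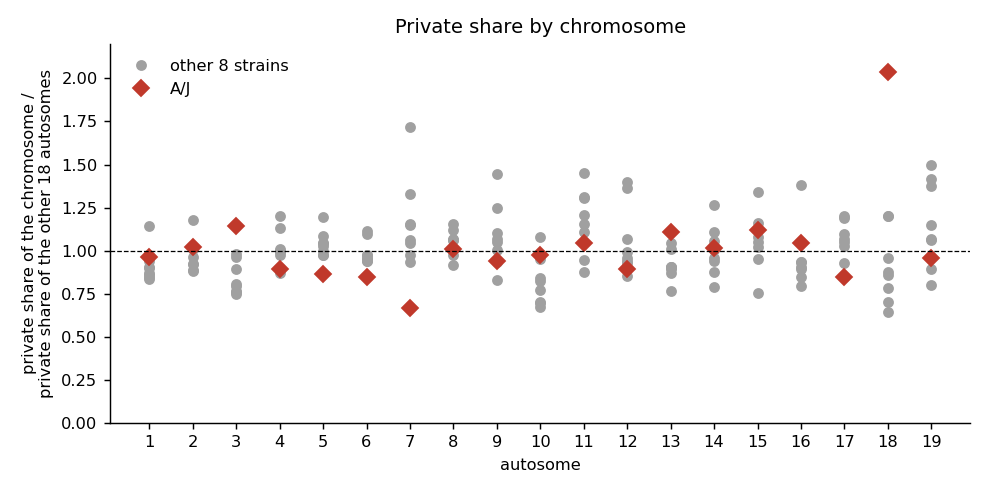
Private share of each autosome divided by the private share of the same strain's other autosomes, with A/J as diamonds and the other 8 strains as circles; the dashed line is 1. A/J is at 2.04 on chromosome 18, above the 0.645 to 1.20 of the other strains, and at 0.666 on chromosome 7.

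Private bins were unevenly spread at the scale of 1 Mb. The 2454 windows held a median of 56 A/J private bins and from 0 to 490, and 60 windows held none. The 245 richest windows held 27.0% of all, and 11 of the richest 20 were on chromosome 18. A/J had the most private bins of the 9 strains in 162 windows. The richest was chr14:58000001-59000000 with 490 bins, 483 of them from 14 to 13, where the other strains had 8 to 131. It holds Fgf9, a fibroblast growth factor gene. Next outside chromosome 18 was chr17:4000001-5000000 with 396, which holds Arid1b, a chromatin remodelling subunit gene.

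At gene starts, 1636 of the 16457 protein-coding genes with a listed start had at least 1 A/J private bin within 1 kb, which is 9.94%. With states 1 to 9 on either side of the change there were 1284, or 7.8%. The start bin itself was private in 196 genes, 1.19%, where the other strains had 132 to 533. Most of these 196 changes, 120, were between states 1 to 9. By kind, 37 genes went from 14 to 13, 29 from 3 to 9, 27 from 3 to 1, 24 from 1 to 8, 10 from 3 to 4, 9 from 14 to 4, 8 from 13 to 14 and 7 from 1 to 3.

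Known genes stood in each of these groups, and those given here were chosen after their values were seen. The 3-to-9 group held Bax and Bcl2, which act on cell death, Brca1, a DNA repair gene, and Cdk4, a cell cycle kinase gene, and other strains had 1 to 38 such genes. In the 3-to-1 group were Esr1, the estrogen receptor gene, Fmo5, a flavin monooxygenase gene, Ncoa7 and Rptor, a subunit gene of the growth regulator mTORC1. The 1-to-8 group of 24 was the largest of the 9 strains, the others having 0 to 16, and held Sgk1, a kinase gene induced by steroid hormones, St6gal1, a sialyltransferase gene of liver, Elmo1 and Adgrg1. The 3 genes from 4 to 14 were Best1, Nlrp3, an inflammasome sensor gene, and Rab3il1.

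The 15 genes with the most private bins at their starts had from 6 to 11 of them. All listed starts of a gene were counted, so the windows differ, from 11 bins at Gm550 to 47 over 9 starts at Arpp21. Mapk10, a kinase gene known from neurons, Gm550 and Adam6b had 11 such bins, Olfr453 had 10, Cep126 and Gm10408 had 9, and Il31ra, Dlg4, Bpifb5, Ifna13 and Krtap28-13 had 8. Lce6a had 7, and Frmd4a, Arpp21 and Cacng5 had 6. In 10 of the 15 all of these bins went from 14 to 13, and in Frmd4a 3 of 6 did. Adam6b and Dlg4, a synaptic scaffold gene, went from 13 to 14, Ifna13 from 14 to 4, and Gm550 to states 1, 3 and 9. Over its whole window Dlg4 had 10 private bins, within the 0 to 11 of the other strains. Its state 14 bins, 92, lay within 52 to 127. Reads of Adam6b, Olfr453, Gm10408, Ifna13, Krtap28-13 and Lce6a can be shared with near-identical copies, so their states are uncertain.

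Gm550 on chromosome 19 (chr19:6094419-6098241, plus strand) was the one gene whose start bin, private to A/J, moved between states 13 or 14 and states 1 to 3. Each other strain had from 1 to 6 genes with such a private start, so A/J was at the low end. The Gm550 window, the gene with 1 kb to each side, has 30 bins. In all other 8 strains every bin was in state 14. In A/J 20 bins were outside state 14, 6 in state 1, 1 in state 3 and 13 in state 9. They formed an unbroken stretch of state 1 at chr19:6093401-6094400, state 3 at chr19:6094401-6094600, state 1 again at chr19:6094601-6094800 and state 9 at chr19:6094801-6097400. The state 3 bin spans the end of the upstream sequence shown above and the start itself.

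Iah1, an esterase gene chosen after its values were seen, was the opposite case, with state 14 in A/J where the others had other states (chr12:21316362-21323607, plus strand, 48 bins). Outside state 14 were 26 bins in A/J and a lowest of 46, a median of 48 and a highest of 48 in the other strains. State 1 held 3 bins in A/J and 20 to 34, median 32, in the others. Of the 18 private bins, 5 went from 1 to 8, 4 from 1 to 2, 3 from 1 to 6 and 2 from 1 to 14. State 3, the state most often near starts, held 2 bins in A/J and 2 to 6 in the others, so A/J was at the edge of that range and not outside it. No other strain had a private bin there.

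Mgp, which encodes an inhibitor of calcification, and Cyp11b2, the aldosterone synthase gene of the adrenal, carried state 4 in A/J. All 28 bins of the Mgp window (chr6:136872435-136875823 with 1 kb to each side) were in state 4 in A/J, against 0 to 13, median 0.0, in the others. A run of 4600 bp at chr6:136869801-136874400 went from 14 to 4. Cyp11b2 had 27 of 39 bins in state 4, against 0 to 16, median 8.5, with a private run of 2000 bp at chr15:74851601-74853600. Ifna13, a type I interferon gene, had 8 of 15 bins in state 4 in A/J and at most 1 in any other strain, in a run of 1600 bp at chr4:88643801-88645400 over its start. Mgp and Cyp11b2 were chosen after their values were seen, from genes with the densest private bins. A gene chosen for its A/J private bins tends to have A/J values outside the range of the others, so such a gap is a description and supports nothing, here and at the genes that follow.

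**Figure D5:**
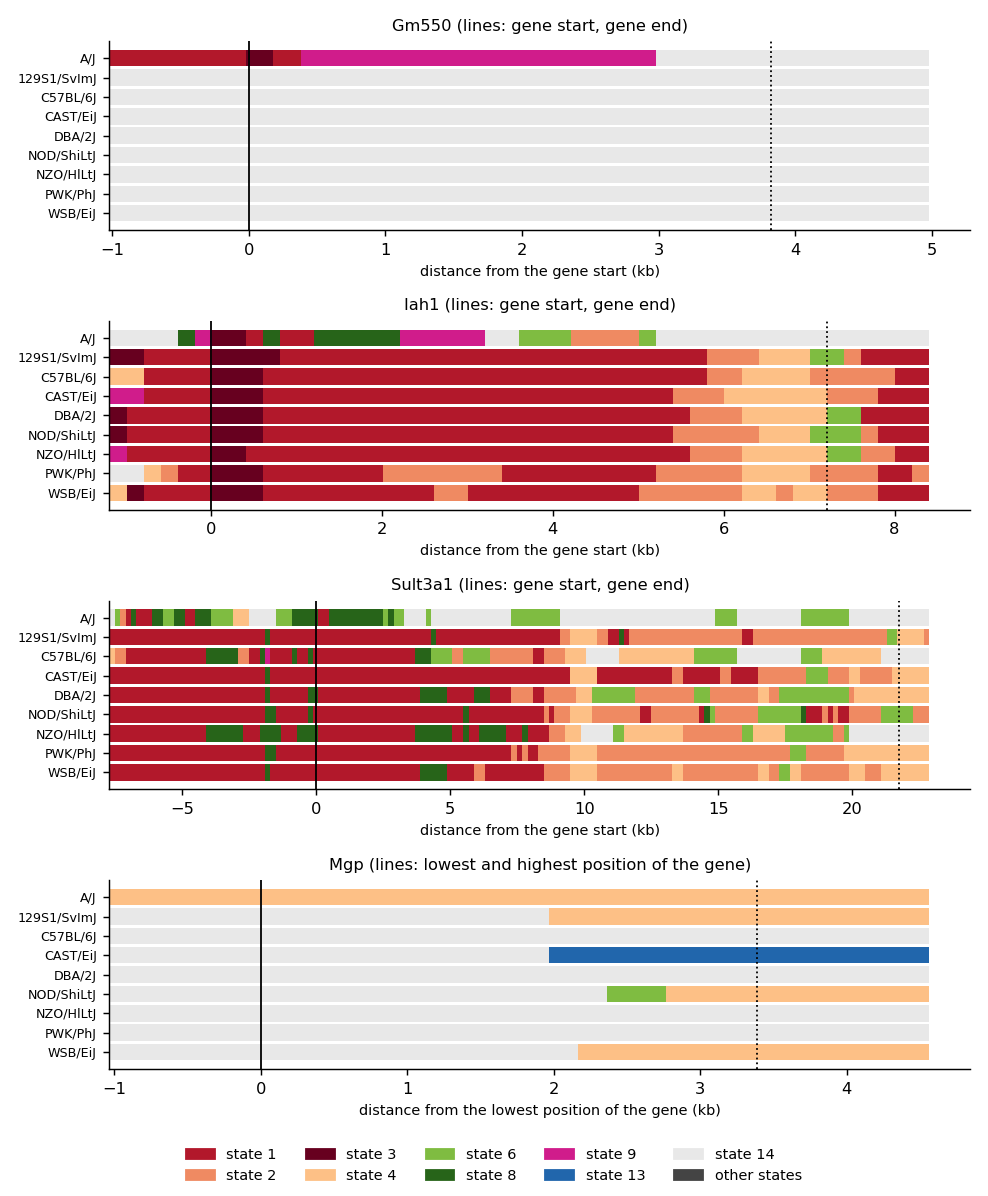
States along Gm550, Iah1, Sult3a1 and Mgp in each of the 9 strains, coloured by state, by distance in kb from the gene start (for Mgp from its lowest position); lines mark the ends of the gene. A/J alone has bins outside state 14 at Gm550 (20), has the fewest outside it at Iah1 (26) and Sult3a1 (72), and is in state 4 over all 28 bins at Mgp.

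Several genes at starts showed state 13 where others had state 14. Il31ra, a cytokine receptor subunit gene, had 126 bins of state 13 in A/J against 0 to 79, median 23.5. Cep126, a centrosome protein gene, had 24 against 0 to 6, and Olfr453, an olfactory receptor gene, had 12 of 15 bins against 0 to 3. Their A/J values lay above all other strains. At Mapk10 they did not: A/J had 63 private bins, but another strain also reached 63, and its state 13 bins, 499, lay within the 134 to 525 of the others. Adam6b had state 14 in 12 of its 23 bins, while all other strains had state 13 throughout.

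Across gene bodies with 1 kb to each side, 8805 of 20665 protein-coding genes held at least 1 A/J private bin, which is 42.6%. Genes so touched were long, with a median of 41905 bp against 9599 bp for the rest. The 10 genes with the most private bins were all very long: Macrod2 with 389, Ptprd with 288, Dlg2 with 274, Frmd4a with 221, Ctnna3 with 219, Tenm3 with 218, Fat3 with 217, Magi2 with 214, Gpc5 with 192 and Dpp6 with 190. Most of their bins went from 14 to 13, for example 381 of the 389 in Macrod2, but 140 of 192 in Gpc5 and 151 of 190 in Dpp6. Private bins covered between 2.53% of the window in Ptprd and 7.38% in Frmd4a. By kind of change, 14 to 13 touched 2496 of the 20665 genes, or 12.1%. Of the same genes 2602 were touched by 2 to 6 or 1 to 8, and 1330 by 14 to 4. The change from 4 to 14 touched 564, that from 13 to 14 touched 539 and that from 14 to 9 touched 317.

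The gene with the most bins of the 2-to-6 and 1-to-8 kind was Egfr, the epidermal growth factor receptor gene, which is highly expressed in hepatocytes (chr11:16752203-16913907). This gene and the others described from here to the lists were chosen after their values were seen. Egfr held 99 private bins of 819 in A/J and 1 to 18, median 7.0, in the other strains, and 79 of the 99 were from 2 to 6 or from 1 to 8. State 6 held 254 bins in A/J and 43 to 150, median 116, in the others. State 2 held 149 against 204 to 384, state 4 held 30 against 66 to 192, and state 14 held 229 against 66 to 190. The longest run, 3200 bp from 2 to 6, lay at chr11:16810201-16813400 inside the gene. A/J lay outside the range of the others in each of these states, while state 3, with 7 bins against 7 to 11, was at the low end of their range.

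Sult3a1, a sulfotransferase gene of the female liver, had little of state 1 in A/J, where the other strains had it widely (chr10:33851020-33879475, 153 bins). State 1 held 8 bins in A/J and 44 to 111, median 74.5, in the others, and state 2 held 1 against 16 to 51. State 14 held 81 bins in A/J, 27 in C57BL/6J, 21 in NZO/HlLtJ and 0 in the other 6. Of its 31 private bins 18 went from 1 to 8 and 8 from 1 to 6, including a run of 2000 bp at chr10:33858201-33860200. No other strain had a private bin in this window. Sult3a1 has a close copy nearby, so the reads cannot be assigned to it with certainty.

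The same kinds of change were seen at other hepatocyte genes. Prlr, the prolactin receptor gene, had 39 private bins (others 2 to 25), and state 8 held 86 bins against 3 to 46, median 15. Cps1, which encodes the first enzyme of the urea cycle, had 288 bins of state 6 against 117 to 253, and 107 of state 2 against 139 to 264. Ghr, the growth hormone receptor gene, had 548 bins of state 6 against 326 to 485, but its 21 private bins lay within the 12 to 39 of the others. Cyp2c29, a cytochrome P450 gene with close copies, had 110 bins of state 6 against 20 to 86. Its 12 private bins lay within the 1 to 17 of the others, and 7 of them went from 1 to 8 and none to state 6. At each of these genes A/J had more of state 6 or 8 than any other strain.

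Alb, the serum albumin gene, stayed outside state 14 in all 90 bins of its window in every strain. Within it 11 bins were private and went from 1 to 3. State 1 held 26 bins in A/J and 39 to 51, median 47.0, in the others, and state 3 held 32 against 7 to 27, median 10.5. A/J lay outside the range of the others in both.

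State 14 in place of state 4 was found at several genes expressed in liver. Nr1h4, the bile acid receptor gene, had 34 private bins, 23 of them from 4 to 14, and state 14 held 42 bins in A/J against 0 to 13, median 3.0. Nfic, a transcription factor gene, had 21 of its 22 private bins from 4 to 14, with 8 bins of state 4 against 29 to 59. Fn1, the fibronectin gene, had 21 such bins, with 109 bins of state 14 against 0 to 77. Cry2, a repressor of the circadian clock, had 18, with a run of 3600 bp at chr2:92413001-92416600, and state 14 held 50 bins against 0 to 27. At these 4 genes state 14 was wider in A/J than in any other strain. Tns1 with 30 bins and Mertk with 25 had the most of this change, but at Tns1 state 14 held 199 bins, within the 84 to 247 of the others, and its 38 private bins lay within 9 to 48. At Mertk state 14 held 336 bins against 237 to 322.

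The change from 14 to 4 was most frequent at Rora, a nuclear receptor gene of the clock and of lipid metabolism, with 65 of its 86 private bins, but other strains had 20 to 178 private bins there. State 13 was widened at Vldlr, a lipoprotein receptor gene, with 28 bins against 0 to 14, and at Cyp4a12b, with 26 against 0 to 4. Cyp4a12b had 16 private bins, and another strain also reached 16. It has a near-identical copy and is uncertain.

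The 17 gene lists give the reach of A/J private bins by function, counted as genes touched in the body, to be read against 42.6% of all genes and a median of 0.0 private bins per gene. Metabolic and liver lists lay on both sides of this. Hepatocyte secreted and identity genes had 15 of 30 touched (median 0.5 bins), cytochrome P450 genes 19 of 49 (0.0), conjugation enzyme genes 17 of 43 (0.0), lipid synthesis and uptake genes 26 of 40 (1.0), and fatty acid oxidation genes 14 of 30 (0.0). Circadian clock genes had 14 of 20 (1.5), and acute phase and complement genes 20 of 36 (1.0). Interferon and guanylate-binding genes had 7 of 33 (0.0), major histocompatibility complex genes 5 of 25 (0.0) and major urinary protein genes 3 of 21 (0.0). Developmental transcription factor genes had 18 of 50 (0.0), and genes with coding variants known in A/J 5 of 8 (1.5). Gene length differs between lists and its part was not tested.

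Few genes of the liver lists were touched by the 14-to-13 change. It can fall only where the other 8 strains are in state 14, and Alb, for example, had no such bin. These bins were not counted per list, and their part in the counts was not tested. The 14-to-13 change touched 12.1% of all genes. It touched 0 of 30 hepatocyte genes, 0 of 43 conjugation genes and 0 of 20 clock genes. Of cytochrome P450 genes it touched 4 of 49, of lipid synthesis genes 2 of 40 and of developmental factors 5 of 50. Among the genes with coding variants known in A/J it was 4 of 8, with 51 bins in Cdh23, a cadherin gene of the inner ear, and 6 in Naip5, a sensor of bacterial flagellin.

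Near starts, read against 9.94%, the lists had few members. The hepatocyte list had 0 of 24. Cytochrome P450 genes had 4 of 37, Cyp2c29, Cyp2c37, Cyp27a1 and Cyp51, conjugation genes 5 of 37, among them Sult3a1, Sult1b1, Gstm6 and Gsta1, and lipid synthesis genes 6 of 29, among them Lss, Vldlr, Acaca and Insig2. Clock genes had 4 of 17, Bhlhe41, Cry2, Clock and Cry1. Fatty acid oxidation genes had 2 of 22, Pdk4 and Hadhb, interferon genes 3 of 23, Rsad2, Irf8 and Irgm2, acute phase genes 2 of 27, Cfd and Hamp2, histocompatibility genes 1 of 21, H2-Q4, and urinary protein genes 1 of 14, Mup21. Developmental factors had 3 of 35, Lhx2, Neurog2 and Six6, and the coding variant list 1 of 8, Naip5. At Neurog2, a neuronal factor gene, state 12 held 0 bins in A/J against 5 to 12, and state 10 held 13 against 1 to 12. Lhx2 had the same change from 12 to 10 in its 4 private bins, but other strains had 0 to 7 private bins there. State 10 held 42 bins at Lhx2, within 16 to 43, and state 12 held 7 against 9 to 25.

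Markers of other liver cells were counted in the same way, to be read against 42.6% of all genes in the body, 12.1% for the 14-to-13 change and 9.94% near starts. Touched in the body were 2 of 13 Kupffer cell, 7 of 14 endothelial, 6 of 14 stellate, 6 of 12 bile duct and 3 of 15 lymphocyte and erythroid markers. The median was 0.0 to 0.5 bins in each list. Of these markers, the 14-to-13 change touched 0, 3, 3, 3 and 2. Near the start there was 1 Kupffer cell marker of 10, Itgam, 0 of 9 endothelial, 1 stellate marker of 10, Lhx2, 1 bile duct marker of 8, Cldn7, and 0 of 9 lymphocyte and erythroid markers. The part of other cells in the private bins was not tested.

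Position relative to genes was compared between private and agreed bins over all 9 strains, with 1 value per strain. The test was an exact permutation of signs, two-sided, whose smallest p is 0.00391, adjusted over 3 tests by Benjamini-Hochberg. Chromosome 18 has no listed start, but its bins are counted in the shares given next. In A/J 1.41% of private bins and 1.29% of agreed bins were near starts. The difference was 0.121 points in A/J and 0.494 ± 0.529 points (SD, n = 9 strains) over all, positive in 8 of 9, with an exact p of 0.0117 and an adjusted p of 0.0176. It did not hold when agreed bins were weighted to the same shared states: the mean was 0.0189 points (exact p = 0.902) and A/J had -0.129. Leaving out single-bin runs turned the mean to -0.203 points (exact p = 0.0547). Without chromosome 18 the unweighted mean was 0.515 points (exact p = 0.0117).

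For gene bodies the result was as dependent on the comparison. In A/J 38.8% of private and 37.9% of agreed bins lay in bodies, a difference of 0.968 points, and over the strains it was 4.25 ± 4.92 points (SD, n = 9), positive in 8, with an exact p and an adjusted p of 0.0430. Weighted to the same shared states it was 1.33 points (exact p = 0.367), and -0.656 in A/J. With a strain left out of the test, it was past the threshold only without PWK/PhJ (exact p = 0.00781).

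Private promoters were poorer in CpG in every strain. The RefSeq promoter sequences with a private start bin held 14.9 CpG on average in A/J (200 promoters), against 17.6 in the 11371 promoters on which all 9 strains agreed, 2.63 fewer (difference -2.63). Over the strains the difference was -5.16 ± 2.19 CpG (SD, n = 9), negative in 9 of 9, with an exact p of 0.00391, the smallest it can give, and an adjusted p of 0.0117. A/J had the smallest difference of the 9. Among promoters where the other 8 shared state 14 the difference turned to 0.49 (exact p = 0.234), with 2.96 CpG in 49 A/J private promoters against 3.32 in 2903 agreed ones.

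When A/J shared its departure with exactly 1 other strain, the partner was most often WSB/EiJ. A/J and WSB/EiJ alone shared a state against the other 7 in 52353 bins, 84.6% of them from 14 to 13. NOD/ShiLtJ followed with 42806, CAST/EiJ with 27485, PWK/PhJ with 23805, 129S1/SvImJ with 23183, NZO/HlLtJ with 19639, DBA/2J with 17372 and C57BL/6J with 15391. WSB/EiJ is also the strain with the widest state 13. In all, A/J differed from C57BL/6J in 13.6% of autosomal bins, the fewest, and from PWK/PhJ in 20.8%, the most.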

How the data were processed

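ChIP-seq of histone marks in hepatocytes of 9 strains was summarised by the authors as 1 chromatin state segmentation per strain, the file that the labels of all libraries of that strain name. The deposited values are a category, the state number from 1 to 14 in column 4 of intervals that tile each chromosome in 200-bp steps, and not a count, signal or score. Per the submitters' processing notes the build is mm10, and FastQC 0.11.5 and MACS 1.4.2 are named without a role. The aligner, the segmentation tool, the read depth and the marks of each state are not given in the sources used here, so no counting error can be given. A further deposited file joining all strains is identical to the strain files laid end to end and was not used.

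Segments were expanded to 200-bp bins on autosomes. Gene bodies are those of the RefSeq table (GRCm38.p6, the same build as mm10). Starts and strands come from the RefSeq promoter table, which has an entry for 16457 of the 20665 protein-coding autosomal genes; the other 4208, the 511 on chromosome 18 among them, have no start here. Gene windows reach 1 kb to each side. A run is a row of neighbouring private bins with the same change. The 3 tested results (position near starts, in bodies, CpG count) were compared over strains with the sign-flip test on all 512 sign patterns and adjusted by Benjamini-Hochberg. A/J against the rest was described without a test. The strains share ancestry, and p-values measure the spread between segmentations.

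Named genes are the 15 with the most private bins near the start, the 10 with the most in the body, genes at the 10 longest runs, genes whose start moved between states 1 to 3 and 13 or 14, and up to 4 per list with private bins near the start; others are said to be chosen later. The members and the lists were chosen with earlier results of these data known. Of 457 list entries, those found on autosomes were counted. Alternatives left out single-bin runs, shifted borders, chromosome 18 or 1 strain at a time, merged states 13 and 14, and used 1000-bp bins, chromosome X, other start windows, all annotated genes and weighted agreed bins. Scripts ran under Python 3.11.15 with matplotlib 3.10.9, scipy 1.17.1, pandas 2.3.3 and numpy 2.4.6, and the code was tested on simulated data, where all planted private bins and runs were recovered.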

Additional observations from a re-analysis of the deposited data

Results flagged for a closer look

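Values of 1 strain that lay far from the other 8, by the gap to the nearest strain over the whole range, are given here; chance marks about 1 in 20 groups in this way. The A/J gene values among them belong to genes picked for their A/J private bins, so a far A/J value is no separate finding there. Over whole autosomes, A/J stood apart in the private share of chromosome 18 over its other autosomes, 2.04. Chromosome 18 was chosen after seeing the data, and this ratio is the highest of 171. The rate of 1 in 20 does not hold for it, and this mark too is no separate finding. PWK/PhJ stood apart in its private share of bins, 4.56%, and in the CpG difference of its private promoters, -10.3. NZO/HlLtJ stood apart in its share of private bins from 4 to 14, 5.71%. It was also marked for its median private run, 200 bp against 400 bp in every other strain. That median moves in steps of 200 bp, and single-bin runs made up 51.8% in NZO/HlLtJ and 49.9% in C57BL/6J. The mean run of NZO/HlLtJ, 459 bp, was close to the 471 bp of C57BL/6J and was not marked. NOD/ShiLtJ stood apart in its share from 14 to 9, 19.5%. At single genes A/J stood apart with 81 bins of state 14 at Sult3a1, 20 bins outside state 14 at Gm550, 28 of state 4 at Mgp, 42 of state 14 at Nr1h4, 24 of state 13 at Cep126, 26 of state 13 at Cyp4a12b, 26 outside state 14 at Iah1 and 26 of state 1 at Alb.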

How the results depend on the processing

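The depth behind each segmentation, the spread between mice and the marks of the states limit every value. No paired analysis was possible because each segmentation combines the mice of a strain. Without single-bin runs the private share was 1.14%, the share with the others in state 14 was 89.2%, the share with A/J in state 14 was 6.54%, the median run 600 bp, the genes near starts 407, and the differences were -0.203 points for starts, turned, and 2.30 points for bodies, no longer past the threshold. With shifted borders dropped, 85.2% had the others in state 14 and the start difference was 0.299 points (exact p = 0.0508). With states 13 and 14 merged the share was 0.352%, the state 14 shares 59.9% and 9.53%, and the median run 200 bp. The merged start difference was 2.39 points and the body difference 23.4 points (exact p = 0.00391 for each). Bins of 1000 bp gave 1.31% and a median run of 1000 bp, and adding chromosome X gave 1.28%. Without chromosome 18, chosen after seeing the data, the values were 1.30%, 84.2% and 7.06%. Start windows of 500 bp and 2 kb gave 861 and 2777 genes. The start difference was 0.205 points with 500 bp (exact p = 0.0664) and 1.21 points with 2 kb (exact p = 0.00391). All annotated genes gave 0.743 points for starts (exact p = 0.00781) and 5.52 points for bodies (exact p = 0.0156). Weighted agreed bins gave 0.0189 points for starts and 1.33 for bodies, and CpG in state 14 promoters turned to 0.49. With 1 strain left out and 7 agreeing, the share was 1.48% to 1.79%, the state 14 shares 80.8% to 85.8% and 6.65% to 9.68%, and the body difference 3.90 to 5.45 points, adjusted p = 0.0547 without 129S1/SvImJ, C57BL/6J, NOD/ShiLtJ or NZO/HlLtJ. With 1 strain left out of the test the body difference was 3.29 to 5.48 points, the start difference 0.365 to 0.568 and the CpG difference -5.48 to -4.52, the last 2 past the threshold each time. For 119 single genes the A/J private-bin count was held against its main value by a fixed fold limit, not by the spread between strains. Within that limit stayed 94 without single-bin runs, 70 with states merged and 115 without chromosome 18.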
